A study of Homo sapiens with 45 samples.

Results

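HMGA1 and TFDP1 were silenced together in SUDHL6 cells, a human diffuse large B-cell lymphoma line of germinal-centre type, and transcripts were measured on expression arrays 20 hours later. The joint silencing, siHMGA1+siTFDP1, had 4 arrays, which were compared with the 6 arrays of non-target siRNA in the first set of the experiment. These 10 arrays were taken from their titles, of 45 in the series. The 6 control arrays comprised 4 of siNT4, 1 non-target pool, and 2 of siNT4+siNT4, its doubled form. The silencings of each gene alone, siHMGA1 and siTFDP1, had 3 arrays each and were used to place the pair between them. All arrays came from the same cell line, nucleofected with pools of siRNAs (80 pmol per pool, per the labels' protocols). The labels do not say how much of each pool a paired nucleofection received, nor that replicates were separate cultures. The p-values below therefore cover variation among arrays, possibly only technical. Those from limma pool the spread over all 44 arrays fitted, other silencings included.

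HMGA1 is a small AT-hook protein that binds the minor groove of DNA, bends it and helps other factors assemble at promoters and enhancers. TFDP1 encodes DP1, the partner with which E2F1 to E2F6 form a DNA-binding dimer. E2F-DP dimers control genes for DNA replication, nucleotide synthesis and entry into mitosis, and retinoblastoma-family proteins hold them inactive until cyclin-dependent kinases phosphorylate them. Both genes are highly expressed in many dividing tumour cells, aggressive lymphomas included.

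Levels below are the authors' log2 values, and a difference of 1 is a change by a factor of 2 as far as that scale is a plain log2. Of 8270 genes with a probe above background, 3 differed between siHMGA1+siTFDP1 and control at an adjusted p under 0.05, which was 0.0363% of those tested. They were HMGA1 and TFDP1, which fell, and SMAP2, which rose. Without joint replicate 2, 3 or 4 the count was 1, and it was 0 when the fit used these 10 arrays alone (limma, 398 genes at an unadjusted p under 0.05). The median gene moved by 0.0643 in either direction, and 99% of genes moved by less than 0.261. The smallest change past the threshold was 0.401, and at the median SE of 0.0902 a gene's 95% interval reached 0.182 to each side of its estimate. On these arrays 24.2% to 25.5% of probes were above background after joint silencing and 25.2% to 25.9% in the controls.

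One joint array was less like the others of its group. The array labelled siHMGA1+siTFDP1 replicate 1 had a median correlation of 0.986 with the other joint arrays, which correlated at 0.994 to 0.995 with theirs, and the array most like it was siNT4 replicate 2 at 0.993. HMGA1 was not lowered on it, while TFDP1 was. The replicate 1 arrays of siTFDP1, siHMGA1 and siNT4 also correlated less with the joint arrays, at a median of 0.982, 0.986 and 0.987. Results are given with all 4 joint arrays, and with replicates 2 to 4 alone for both targets, for the counts and where a call differed. Some small differences and list medians near 0 changed sign without replicate 1, and not all of these are given. Replicate 1 is set aside for its HMGA1 level, so HMGA1 values without it are a description and not a test. Without replicate 1, 4 genes passed the threshold, 0.0484% of those tested, and 2 of these, HMGA1 and TFDP1, were shared with the 4-array result.

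HMGA1 read 11.27 on replicate 1 of the joint silencing and 10.70, 10.60 and 10.58 on replicates 2, 3 and 4. The 6 control arrays lay between 11.25 and 11.53, and the 3 siHMGA1 arrays between 9.733 and 10.16. Replicate 1 thus fell among the controls, while the other replicates lay below every control array and above every siHMGA1 array. Over 4 arrays the mean was 10.79 ± 0.328 (SD, n = 4) against 11.37 in the controls, a fall by 0.58 (SE 0.10) with limma's adjusted p = 0.00498. Replicates 2 to 4 alone averaged 0.75 below control. A two-sided exact permutation test over the 4 and 6 arrays, which shares no spread with other groups, gave p = 0.0143, and adjustment over the 2 targets tested left it at 0.0143. The HMGA1 level left was 66.8% of control with all arrays and 59.7% without replicate 1, against 35.4% after siHMGA1 alone. The value rests on 1 probe, since the other 2 probes for HMGA1 did not pass the background filter. The limma call did not hold when the fit used only these 10 arrays (adjusted p = 0.148) or only the first set (adjusted p = 0.0631), nor without replicate 2, 3 or 4 (adjusted p = 0.0726, 0.0944 and 0.109).

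TFDP1 read 10.41, 10.94, 11.06 and 10.71 on replicates 1 to 4 of the joint silencing. The controls lay between 11.25 and 11.46, the siTFDP1 arrays between 10.18 and 10.35, and the siHMGA1 arrays between 11.31 and 11.44. Joint and control arrays did not overlap, and replicate 1, with HMGA1 at the control level, had the lowest TFDP1 of the 4. The mean of 10.78 ± 0.284 (SD, n = 4) was below control by 0.58 (SE 0.085), with limma's adjusted p = 1.48e-04, and the fall without replicate 1 was by 0.46, adjusted p = 0.00474. The exact permutation test gave p = 0.00476 with 4 arrays, the smallest possible, 0.00952 after adjustment over both targets. A second TFDP1 probe fell by 0.52 and, without replicate 1, by 0.40. The level left was 66.8% of control, or 72.6% without replicate 1, against 47.2% after siTFDP1 alone. With only the 10 arrays in the fit limma's adjusted p was 0.0917. TFDP1 was lower still, at 9.472 on average, on the 3 arrays labelled siATF5, and at 11.41 on those labelled siHMGA1+siATF5. ATF5 differed from control by 0.19 on the arrays labelled siTFDP1, adjusted p = 0.48. Titles were used as given, and every comparison with siTFDP1 below depends on them.

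**Figure D1:**
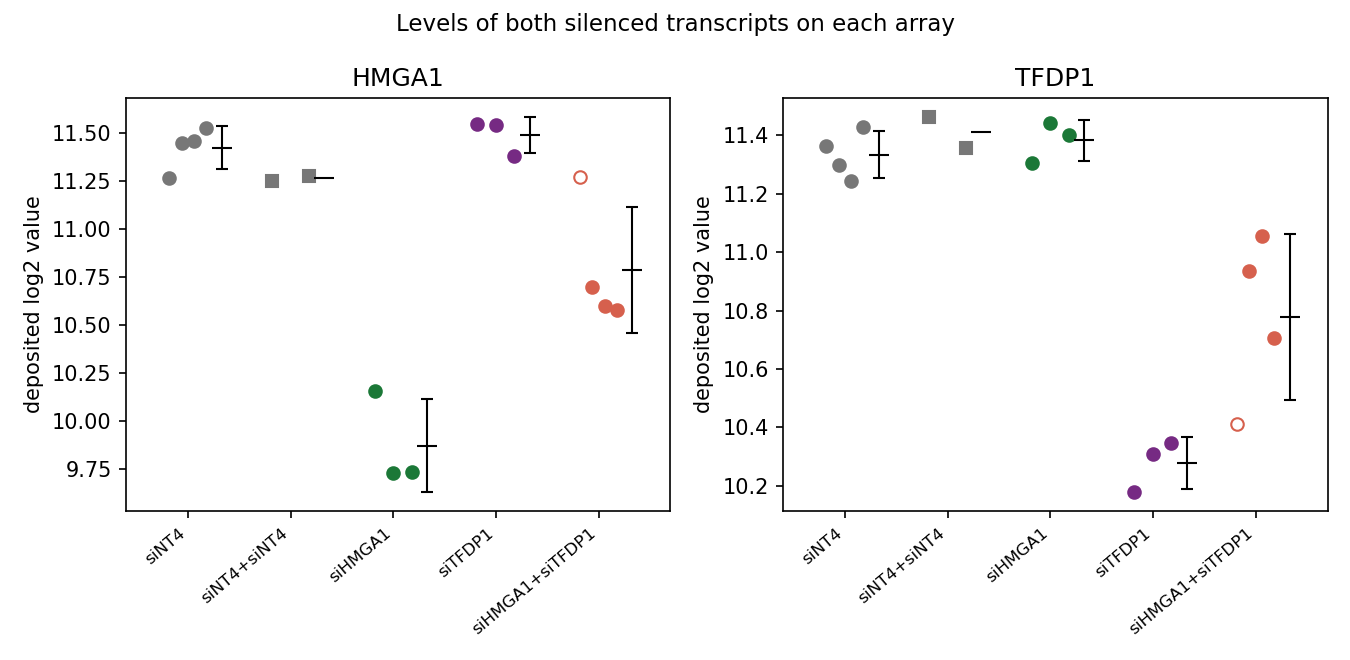
Deposited log2 level of HMGA1 (left) and TFDP1 (right) on each array, by silencing group. Points are arrays, squares the doubled control, the open point replicate 1 of siHMGA1+siTFDP1, and black bars show the mean with SD over arrays (mean alone for 2 arrays). The joint arrays lie between control and the single silencing for both transcripts, except replicate 1, where HMGA1 is at 11.27 among the controls and TFDP1 at 10.41 is the lowest joint value.

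Set directly against the single silencings, joint silencing left both targets higher. HMGA1 was higher than after siHMGA1 alone by 0.92 (SE 0.12, adjusted p = 2.10e-05), and by 0.75 to 1.06 over the alternatives run. TFDP1 was higher than after siTFDP1 alone by 0.50 (SE 0.10, adjusted p = 0.0112). Each single silencing left the partner's transcript near control: TFDP1 differed by 0.02 after siHMGA1 and HMGA1 by 0.12 after siTFDP1, and neither difference passed the threshold.

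Against siHMGA1 alone, HMGA1 and TFDP1 were the genes past the threshold, 2 in all or 0.0242%, and leaving out replicate 1 gave 2 again, 0.0242%. siHMGA1 itself moved 2 genes against the same control, again 0.0242%, HMGA1 and SMAP2. At a median SE of 0.107 a gene's 95% interval in the comparison with siHMGA1 reached 0.215 to each side, and the smallest difference called was 0.607.

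SMAP2, an ARF GTPase-activating protein that binds clathrin and acts in traffic from the trans-Golgi network, was the single gene that rose. It read 10.00, 9.95, 9.93 and 9.95 on the joint arrays and 9.43 to 9.67 on the controls. All 4 joint arrays were above all 6 controls, with a rise of 0.40 (SE 0.078, adjusted p = 0.0176). The siHMGA1 arrays averaged 9.98 and the siTFDP1 arrays 9.91, higher than the same controls by 0.43 (adjusted p = 0.0401) and 0.35 (adjusted p = 0.0397). These comparisons share the 6 control arrays, so a low value there enters each. The joint rise did not pass in 14 of 24 alternatives, among them the fit without replicate 1, where it was 0.39 with adjusted p = 0.0733. A second, dimmer SMAP2 probe differed by -0.013.

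Leaving out replicate 1 brought 2 genes past the threshold that the 4 arrays did not. TAPBP, which encodes tapasin, the chaperone that loads peptide onto MHC class I, read 10.05 on replicate 1 and 10.37, 10.37 and 10.48 on the others, against 9.86 to 10.06 in the controls. Replicate 1 lay within the controls and the other arrays above them. The rise without replicate 1 was 0.45 (SE 0.093, adjusted p = 0.0369), and the difference with it was 0.36, adjusted p = 0.412. A second probe above background differed by 0.04 in both fits. TK1, the cytosolic thymidine kinase that salvages thymidine for DNA synthesis and a classical E2F target, read 9.09 on replicate 1 and 8.65, 8.44 and 8.46 on the others, against 8.84 to 9.03 in the controls. Replicate 1 was above every control and the other arrays below every control. Without replicate 1 TK1 fell by 0.41 (SE 0.082, adjusted p = 0.0254), and with it the difference was -0.27, adjusted p = 0.941.

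**Figure D2:**
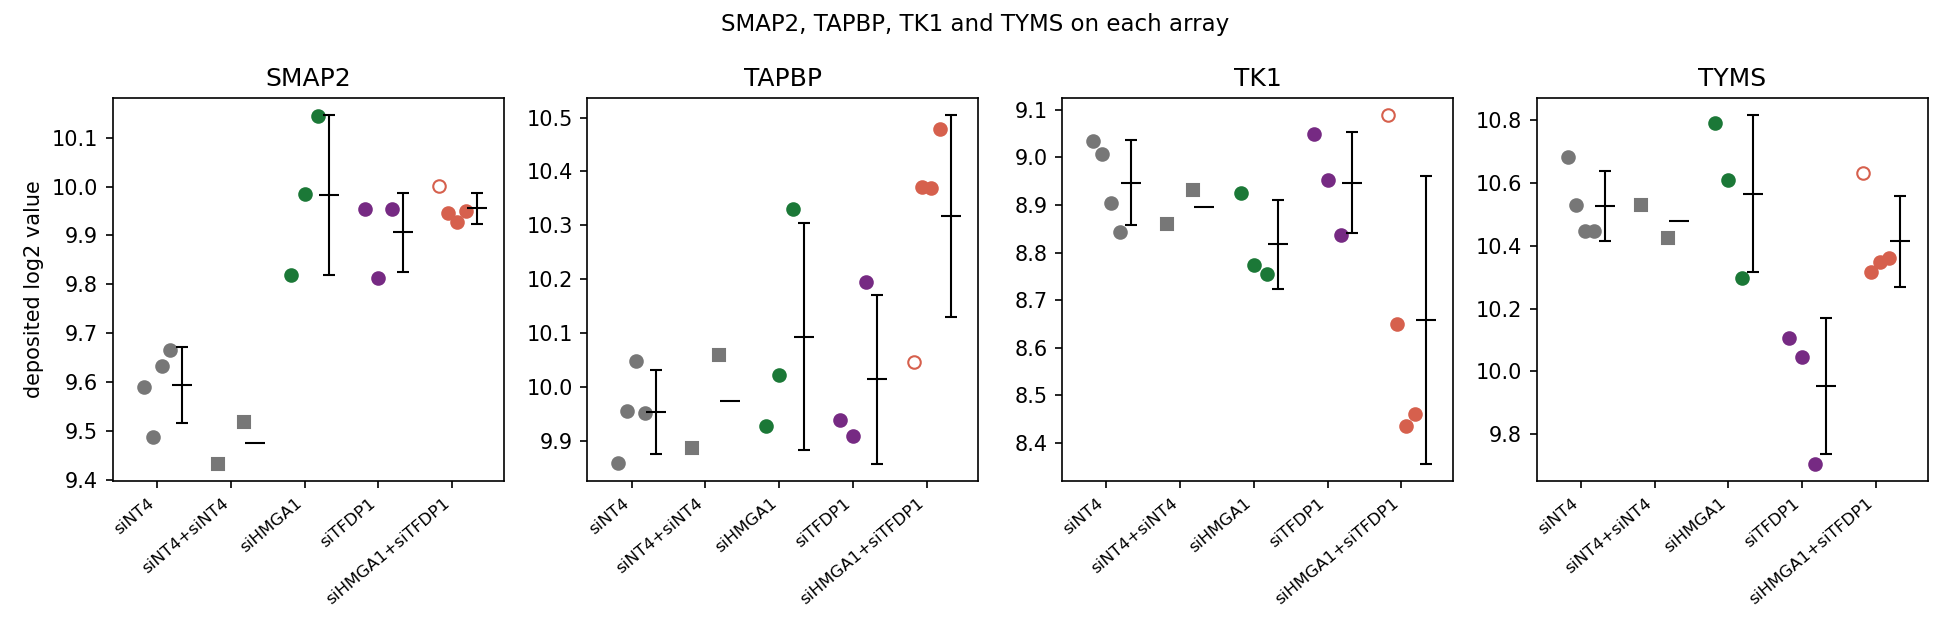
Deposited log2 level of SMAP2, TAPBP, TK1 and TYMS on each array by silencing group, each panel with its own vertical scale and symbols as in the plot of HMGA1 and TFDP1 levels (bars are mean and SD). SMAP2 is above control in all 3 silencing groups, TAPBP and TK1 leave the control range on replicates 2 to 4 but not on replicate 1 (open point) in the same direction, and TYMS is lowest after siTFDP1 alone.

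Counted by overlap in place of a test, 74 genes lay below all 6 controls on all 4 joint arrays, 0.895% of those tested, and 39 lay above, 0.472%. Without replicate 1 the counts were 374 below, 4.52%, and 156 above, 1.89%. Fewer arrays make such a separation easier, so the counts are not comparable as effects. Of the lists described below, unfolded protein response genes had 3 of 21 members among the 74, DNA repair genes had 2 of 20, and each other list had 1 or 0. Without replicate 1 oxidative phosphorylation genes had 7 of 33 and DNA repair genes 5 of 20 among the 374.

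Beyond the 3 genes called, those of smallest p are named as such, and none of them passed. On the higher side these were LPCAT1, a phospholipid-remodelling acyltransferase (0.38), CCDC88C, which binds Dishevelled in Wnt signalling (0.48), AHSA2P (0.29), EIF2AK3, the endoplasmic reticulum stress kinase PERK (0.29), NBPF11 (0.35), EOLA1 (0.26) and TAPBP. NBPF11 belongs to a family of near-identical copies, so its probe may read several genes. On the lower side were PAGR1, a component of MLL3/MLL4 histone methyltransferase complexes (-0.26), PTPN6, the phosphatase SHP-1 that restrains B-cell receptor signalling (-0.31), NAA20, the catalytic subunit of an N-terminal acetyltransferase (-0.28), SMYD4 (-0.24), DAD1, a subunit of oligosaccharyltransferase (-0.25), and COA3, an assembly factor of cytochrome c oxidase (-0.27). Adjusted p for these 13 genes ran from 0.345 to 0.941. LPCAT1, CCDC88C, PAGR1 and SMYD4 did not overlap the controls on any joint array, while PTPN6, AHSA2P, EOLA1 and COA3 overlapped them with or without replicate 1. PAGR1 read 10.45, 10.28, 10.17 and 10.12 on the joint arrays against 10.46 to 10.57 in the controls, replicate 1 lying just under the lowest control, and its second probe differed by -0.14.

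The families of both targets were read next. Of the other 16 measured genes for E2F, DP and retinoblastoma-family proteins and their MuvB partners, none passed the threshold after joint silencing, with or without replicate 1. TFDP2, which encodes the other DP partner of E2F, differed by 0.0010 (SE 0.12) on a dim probe. E2F1, the best-known activator, was 0.15 above control and E2F8, an atypical repressor that needs no DP, was 0.15 below it. E2F2 differed by -0.07, E2F3 by 0.01 and E2F4, the main repressor-type E2F of resting cells, by -0.08, while RB1 differed by 0.01. The family median was -0.01, as against -0.01 over all genes tested.

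Among 14 measured high-mobility-group proteins HMGA1 was the single one past the threshold. HMGN3 was 0.18 above control, and HMGB2, a DNA-bending protein abundant in dividing cells, was 0.09 above it with 4 arrays and 0.23 without replicate 1. HMG20B differed by -0.13 and TFAM, the mitochondrial DNA packaging factor, by -0.12. The list median was -0.05, and 11 of 14 members were below control, where 4649 of 8270 genes were.

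G1/S genes, the classical targets of E2F-DP dimers, were described in 4 lists by role, and no member passed the threshold with 4 arrays. All 9 measured nucleotide synthesis genes were below control, with a median of -0.10 and, without replicate 1, -0.12. Of 18 licensing and helicase genes 15 were below control (median -0.05), as were 16 of 21 polymerase and clamp genes (median -0.06) and 9 of 11 cyclin and E2F feedback genes (median -0.14). Without replicate 1 TK1 alone passed, and 12 licensing, 17 polymerase and 8 cyclin and feedback genes were below control. The median over nucleotide synthesis genes was 0.08 above the control mean on replicate 1 and 0.06 to 0.15 below it on replicates 2 to 4, while single controls lay from 0.05 below to 0.04 above. For the cyclin and E2F feedback list all 4 joint arrays were below every control.

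Within nucleotide synthesis, TK1 is described above. RRM2, the regulated subunit of ribonucleotide reductase, differed by -0.22 with 4 arrays and -0.13 without replicate 1, and its arrays overlapped the controls. RRM1, the large subunit, differed by -0.08, and DUT, which removes dUTP, by -0.13. TYMS, the thymidylate synthase that makes dTMP, read 10.63 on replicate 1 and 10.31, 10.35 and 10.36 on the others, against 10.43 to 10.68 in the controls, a difference of -0.10 (SE 0.096, adjusted p = 0.96). Among the other G1/S genes the smallest p belonged to MCM10, an initiation factor that helps activate the helicase (-0.21), CDT1, the licensing factor (-0.17), FEN1, the flap nuclease of Okazaki fragments (-0.22), RPA3, a subunit of the single-strand binding complex (-0.19), CCND3, the D-type cyclin of germinal-centre B cells (-0.24), and CDC25A, the phosphatase that activates CDK2 (-0.20).

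To show the sequence through which E2F-DP dimers act, the 250 bases before each gene's start (RefSeq, GRCh38.p14) were searched on both strands for TTTCCCGC, TTTCGCGC, TTTGCCGC and TTTGGCGC. At least 1 of them was found in 2.79% of 27305 promoters, in 4.99% of the 6770 tested genes with a promoter entry, and in 15 of 50 G1/S genes with one (30%). For each of the 4 lists, the matching gene with the lowest joint change is printed with the bases around its match in capitals, followed by TFDP1, whose own promoter holds one. A match is a description of letters and not a mapped site.
GINS2 (helicase component, chr16:85688958-85689005, minus strand): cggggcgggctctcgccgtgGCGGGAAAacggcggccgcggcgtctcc
PCNA (sliding clamp, chr20:5126654-5126701, minus strand): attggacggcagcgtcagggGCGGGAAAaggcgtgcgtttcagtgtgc
TYMS (thymidylate synthase, chr18:657594-657641, plus strand): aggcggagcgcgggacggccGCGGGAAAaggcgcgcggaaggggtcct
CDC25A (CDK-activating phosphatase, chr3:48188434-48188481, minus strand): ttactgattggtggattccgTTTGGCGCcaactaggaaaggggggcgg
TFDP1 (chr13:113584613-113584660, plus strand): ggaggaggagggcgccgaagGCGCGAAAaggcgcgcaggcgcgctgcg

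After joint silencing GINS2 differed by -0.20, PCNA by -0.10, TYMS by -0.10 and CDC25A by -0.20, none past the threshold. The 15 G1/S genes with a match had a median difference of -0.07 and the 35 without one also -0.07. Over all tested genes the medians were -0.02 for 338 with a match and -0.01 for 6432 without. No match was found in this window for HMGA1, SMAP2, TAPBP or TK1.

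Mitotic genes behaved similarly in size. Of 24 cyclins, kinases and checkpoint genes of G2/M 18 were below control (median -0.10), and of 39 spindle and kinesin genes 28 were (median -0.06, and -0.10 without replicate 1). No member passed, with or without replicate 1. BIRC5, which encodes survivin, was below every control on all 4 joint arrays with a difference of -0.15. Of the 24 genes 1 lay below every control in this way and of the 39 genes 0, beside 0.895% of all genes tested. ESPL1, the separase, differed by -0.20, UBE2C, the conjugating enzyme of the anaphase-promoting complex, by -0.16, CENPM by -0.18 and HMMR by -0.25. FOXM1, the forkhead factor of G2/M genes, differed by -0.10.

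**Figure D3:**
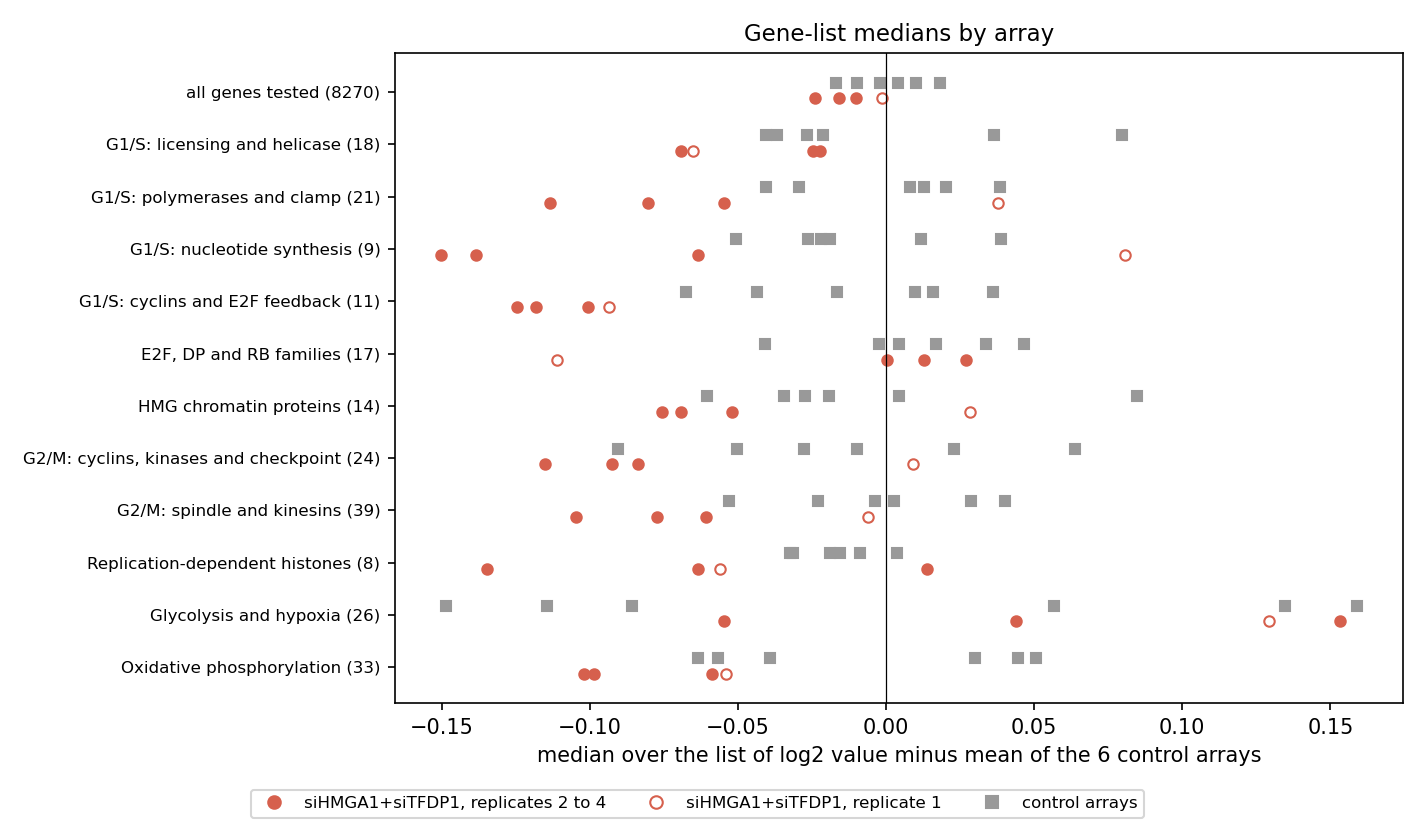
Median over each gene list (members measured in parentheses) of the log2 difference from the mean of the 6 control arrays, for each joint array (circles, open for replicate 1) and each control array (squares). Most cell-cycle medians on replicates 2 to 4 lie between 0 and -0.15, replicate 1 lies apart from them for nucleotide synthesis at 0.08, and control arrays spread over up to about the same width.

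Other programmes had medians of a size like those of the cell-cycle lists or smaller. Of 33 oxidative phosphorylation genes 27 were below control (median -0.09), with UQCRC1 at -0.26 and NDUFB7 at -0.25. Of 26 glycolysis and hypoxia genes 20 were above it (median 0.06), with HIF1A at 0.23 and HK2 at 0.20, but single control arrays differed from each other by more than this. Of 20 DNA repair genes 13 were below control (median -0.06); ATM, the double-strand break kinase, was 0.26 above and BARD1, the partner of BRCA1, 0.21 below. None of these genes passed the threshold. With 4 arrays medians were within 0.06 of 0 for the other lists, which held CDK inhibitors and p53 targets, BCL2 family, germinal-centre, B-cell receptor, NF-kB, MHC class II, MYC and ribosome biogenesis, cholesterol synthesis, unfolded protein, amino acid, heat shock, interferon, immediate early and chromatin regulator genes. Without replicate 1 the NF-kB list went from 7 to 13 of 18 genes below control, with medians of 0.02 and -0.03, and the chromatin regulator median was 0.07. Replication-dependent histones, of which 8 of 25 were measured, had a median of -0.06.

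The label of the cells was checked against markers. Of 13 B-cell and germinal-centre markers listed 11 were above background, CD79A, MS4A1, BCL6 and MME among them, with a summed log2 level of 130.9 to 132.1 on joint arrays and 130.5 to 132.4 on controls. None of 12 T-cell markers with a probe was above background. Of 10 myeloid markers CD14 and FCGR3A were (summed 14.78 to 15 against 14.75 to 15.36), and of 9 stromal and epithelial markers VIM was (9.949 to 10.29 against 9.992 to 10.18). In bulk RNA, fewer cells of a kind and less RNA per cell cannot be told apart.

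The comparison with siTFDP1 alone gave by far the most differences. Joint silencing differed from it in 184 genes, 2.22% of those tested, of which 102 were higher (1.23%) and 82 lower (0.992%). Without replicate 1 the count was 431, 5.21%, with 204 higher (2.47%) and 227 lower (2.74%), and 163 genes were shared by both counts. The siTFDP1 replicate 1 array correlated at 0.987 with joint replicate 1 and at 0.982 with the other joint arrays. For siTFDP1 replicate 2 the values were 0.988 and 0.986 to 0.987. Replicate 3 of siTFDP1 went the other way, at 0.986 and 0.990 to 0.991. Whether such likeness between arrays, apart from the silencing, enters the larger count was not tested. For 166 of the 184 it was the siTFDP1 arrays that lay farther from control, with a median distance of 0.319 against 0.12 for the joint arrays. Without replicate 1 this held for 287 of the 431, with medians of 0.275 and 0.188. Of the 184, 25 also passed between siTFDP1 and control, a comparison in which 40 genes passed, 0.484%. Both use the same siTFDP1 arrays, so the 25 are no independent count. The 184 and 431 genes were themselves picked for the distance between joint and siTFDP1 arrays. The 166 and 287 are thus descriptions and not tests, and the same share over all genes is not given here.

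Among the genes with the largest excess after joint silencing over siTFDP1 were CAPZA1, an actin-capping subunit (1.09, SE 0.27, adjusted p = 0.0236), DCAF13, a factor of ribosomal RNA processing (0.87, SE 0.16, adjusted p = 0.00568), SBDS, which matures the large ribosomal subunit (0.87), and RAD21, the cleavable subunit of cohesin (0.83). SBDS read 9.86 to 10.43 on the joint arrays, 9.80 to 10.18 on the controls and 9.08 to 9.43 on the siTFDP1 arrays. Joint and control arrays overlapped for these 4 genes, and the siTFDP1 arrays lay below the joint arrays. CAPZA1 itself ran from 9.11 to 10.26 over the 6 controls, a wide spread.

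Lower than after siTFDP1, beside HMGA1 (-0.70), were NCKAP1L, the blood-cell subunit of the actin-regulating WAVE complex (-0.69), CDK11A (-0.66), TAF3, a subunit of TFIID (-0.61), and GNL3L, a nucleolar GTPase (-0.59). CDK11A has a near-identical paralogue, and its probe may read both. NCKAP1L read 10.85 to 11.14 on the joint arrays, 10.90 to 11.37 on the controls and 11.57 to 11.80 on the siTFDP1 arrays. Among cell-cycle genes TYMS was higher than after siTFDP1 by 0.46 (adjusted p = 0.0239), and siTFDP1 alone had lowered it by 0.56 against control (adjusted p = 0.00645). RRM2 had fallen by 0.51 after siTFDP1 alone, and its joint level was 0.29 higher without passing (adjusted p = 0.144) and 0.38 higher without replicate 1, where it passed (adjusted p = 0.0418). CDK1, NEK2 and STMN1, the last a tubulin-binding protein, which had fallen by 0.53, 0.71 and 0.53 after siTFDP1 alone, were each higher after joint silencing past the threshold. In the opposite direction UBE2C was lower than after siTFDP1 by 0.35 (adjusted p = 0.0311) and RPA3 by 0.41 (adjusted p = 0.0239). Of the 24 cyclins, kinases and checkpoint genes 3 were higher and 1 lower past the threshold, and of the 39 spindle and kinesin genes 2 were higher and 0 lower. Over all genes tested 1.23% were higher and 0.992% lower. The joint differences of CDK1, NEK2 and STMN1 from control were -0.05, -0.13 and -0.16. PTPN6 was 0.51 lower than after siTFDP1.

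The share of probes above background moved with this comparison, at 24.2% to 25.5% on joint arrays and 25.9% to 27.1% on siTFDP1 arrays, without overlap. When this share entered the fit as a covariate, 1 difference passed, that of HMGA1 (-0.75, adjusted p = 0.00477), and DCAF13 and SBDS had adjusted p = 0.0602. The share and the silencing cannot be told apart in these groups. The count also fell to 23 and 81 without siTFDP1 replicate 1 and 2, and to 64, 72 and 88 without joint replicate 2, 3 and 4.

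Whether the joint change equalled the sum of the single changes was tested with 1 contrast over the 4 groups. It was rejected for 14 genes, 0.169% of those tested, and for 24 without replicate 1, 0.29%, of which 10 were shared. With the replicate number as a block 3 passed. For HMGA1 the joint fall was smaller than the sum by 0.80 (SE 0.17, adjusted p = 0.0324), while for TFDP1 the departure was 0.48 with 4 arrays, which did not pass (adjusted p = 0.116), and 0.60 without replicate 1, which did (adjusted p = 0.0257). For the other 13 genes the joint level lay nearer control than the siTFDP1 level did. The contrast that picked these genes uses the same arrays and favours this pattern, so it is a description and not a test. DCAF13 differed by -0.26 after siHMGA1, -0.72 after siTFDP1 and 0.15 after both, and SBDS by -0.15, -0.76 and 0.11. CD37, a B-cell tetraspanin, differed by 0.40, 0.58 and 0.08, and CCNI2, a cyclin, by 0.42, 0.39 and 0.03.

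Of the 14 genes 7 had passed between siTFDP1 and control and 1, HMGA1, between joint silencing and control, and 12 were among the 184. These comparisons share arrays with the contrast that picked the 14, so the 7 and 12 are no independent counts. ACSL4, an acyl-CoA synthetase for polyunsaturated fatty acids, HSPA14, a ribosome-associated HSP70, and ISCA1, an iron-sulphur cluster factor, lay above the sum by 0.70, 0.70 and 0.65. AMACR, RBM39, a splicing factor, and RBPJ, the DNA-binding factor of Notch signalling, lay below it by values of -0.65, -0.62 and -0.55, as did BRSK1, SNORA37 and NCF1C at -0.52, -0.51 and -0.50. AMACR, BRSK1, SNORA37 and NCF1C did not pass without replicate 1, where their adjusted p ran from 0.0526 to 0.0563. NCF1C is a near copy of NCF1, and its probe may read both. The median SE of this contrast was 0.145, and leaving out single arrays gave 0 to 40 genes, 0 without siHMGA1 replicate 3 or joint replicate 4. No gene passed when that share was a covariate or with the 4 siNT4 arrays alone as control, where 760 and 835 genes had an unadjusted limma p under 0.05.

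**Figure D4:**
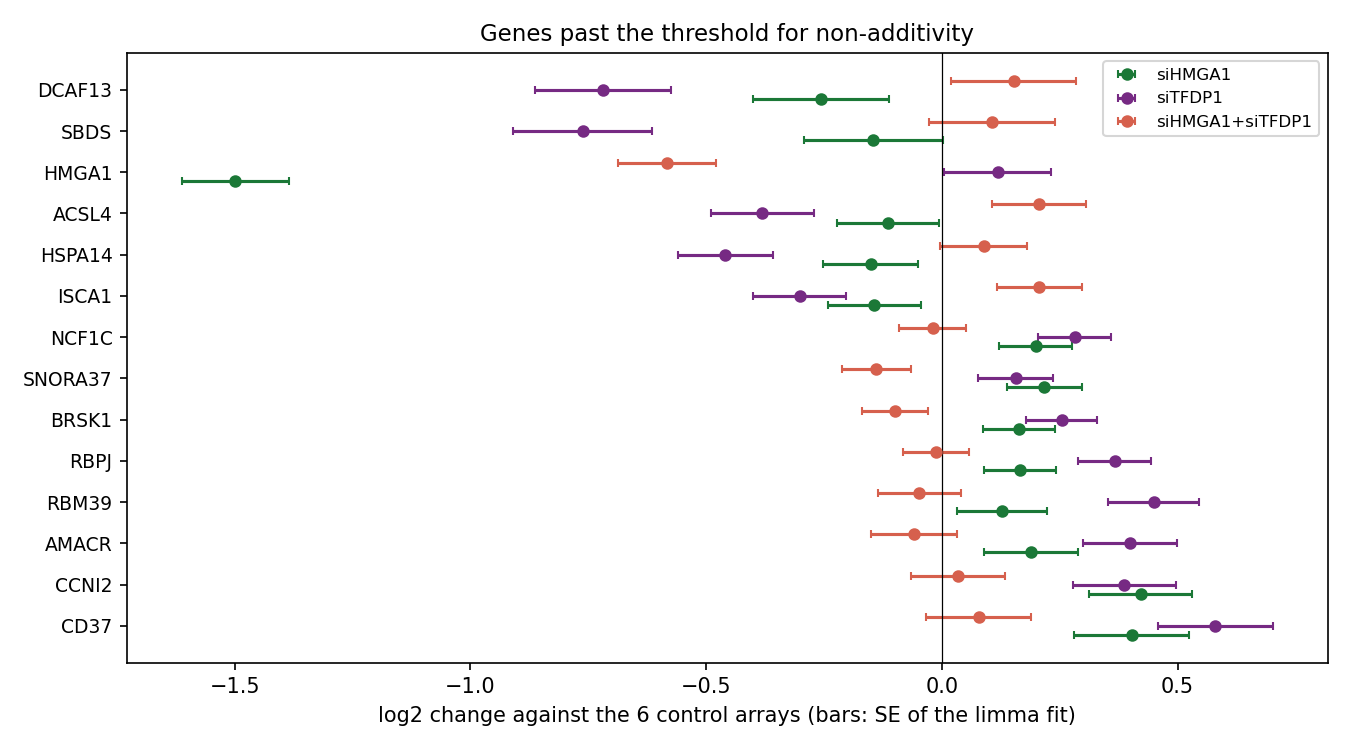
Log2 change against the 6 control arrays of the 14 genes past the threshold for non-additivity, after siHMGA1, siTFDP1 and both (points; bars are the SE of the limma fit). For all but HMGA1 the joint change lies within 0.21 of 0, while the siTFDP1 change lies between -0.76 and 0.58. The genes were picked by a contrast on these same arrays, so the pattern is a description.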

How the data were processed

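Each sample was 1 Illumina array. The authors' deposited table holds processed log2 values, 6.28 to 16.28, for 45013 probes; how background was corrected and values normalized is not given here. A second table of raw intensity was not used, because its 90 columns are named by chip and position, and no label ties these to samples. Of the probes, 28746 had 1 gene symbol, 8 several and 16259 none in the platform annotation. A probe was above background if more than 0.5 log2 over its array's median on at least 3 arrays; the probe with the highest mean stood for each of 8270 genes. One linear model with a mean per group was fitted to 44 arrays with limma 3.58.1 in R 4.3.3 (lmFit, eBayes, two-sided, Benjamini-Hochberg over all 8270 genes, threshold 0.05). siTFDP1+siATF5 replicate 3 was left out because it lies far from all other arrays. Groups came from sample titles. Symbols and promoters came from RefSeq; 38 symbols were not found there by gene ID. The fit was also run on simulated data with independent noise on each array, without the shared deviations between arrays seen here. The outcome of that run is not given here. The number of arrays limits the precision.

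Members, gene lists and the choice of fit were made with earlier results of these data known. Genes were named if they were targets or their family members, had the largest changes past the threshold in a comparison, or, where fewer than 5 passed, the 8 smallest p in a direction, with up to 4 members per list. Not every gene that this rule names is reported here. Deviations of same-numbered joint and siHMGA1 arrays correlated at 0.512, 0.225 and 0.167, so their numbers may pair them. The main fit used no pairing. PCNA, GINS2, BIRC5, NDUFB7, HK2, FOXM1, CDK1, NEK2, STMN1, RRM1, DUT, TYMS, ISCA1, BRSK1, SNORA37 and NCF1C were chosen after their values were seen. Alternatives were other arrays in the fit, weights, variance trend, normalization, filters, probe rule, covariate, controls and leaving out each array.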

Additional observations from a re-analysis of the deposited data

Results flagged for a closer look

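For 14 genes the joint change differed from the sum of the single changes, by limma's test of the non-additive contrast (joint minus siHMGA1 minus siTFDP1 plus control). Both targets were less lowered in the joint arrays: HMGA1 was at 66.8% of control against 35.4% after siHMGA1. TFDP1 was at 66.8% against 47.2% after siTFDP1. Whether this weaker silencing accounts for the departures was not tested. On the log2 scale the 5 largest departures in each direction were 1.13 for DCAF13, 1.01 for SBDS, -0.91 for CD37, 0.80 for HMGA1, -0.77 for CCNI2, 0.70 for ACSL4, 0.70 for HSPA14, -0.65 for AMACR, -0.62 for RBM39 and -0.55 for RBPJ, with adjusted p between 0.0317 and 0.0466. Over 51 sets of values, each those of 1 named gene in 1 group of at least 4 arrays, none had an array beyond Dixon's limit. The siNT4 arrays entered alone and again within all controls. With 4 arrays this test has little power. For HMGA1, joint replicate 1 stayed within the limit at 11.27, against 10.58 to 10.70 on the other joint arrays. The test therefore does not show that no array stands apart.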

How the results depend on the processing

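None of the single-gene differences run changed direction under any alternative. Counts were not scored for direction. Against siTFDP1 the main fit had 102 higher and 82 lower genes, and in some alternatives more were lower than higher. Among these were the fits without joint replicate 1 (204 higher, 227 lower) and without siTFDP1 replicate 3 (85 higher, 99 lower). Against control the main 3 genes became 0 with all 45 arrays (limma, 118 genes at an unadjusted p under 0.05), 0 with only the groups compared (398), 1 with the first set only, 10 with array weights and 1 with siNT4+siNT4 alone as control, and leaving out 1 array gave 1 to 4, with 1 without joint replicate 2, 3 or 4. Against siHMGA1, 2 became 1 with 45 arrays and 0 with only the groups compared (180 unadjusted). Against siTFDP1, 184 became 0 with 45 arrays (716 unadjusted), 65 with only the groups compared (53 higher, 12 lower), 38 with the first set only, 592 with array weights (287 higher, 305 lower), 120 with no filter on dim probes (55 higher, 65 lower) and 1 with each array's percentage of probes above background as covariate. Leaving out 1 array gave 23 to 431, with 23 and 81 without siTFDP1 replicate 1 and 2 and 64, 72 and 88 without joint replicate 2, 3 and 4. The 14 non-additive genes became 0 with 45 arrays (414 unadjusted), 3 with only the groups compared, 0 with the first set only (827), 137 with array weights, 9 with median centring, 0 with the covariate and 0 with siNT4 alone, and leaving out 1 array gave 0 to 40 (0 without siHMGA1 replicate 3 or joint replicate 4). For HMGA1 the fall missed the threshold with 45 arrays (-0.58, adjusted p = 0.862), only the groups compared (-0.58, 0.148), the first set only (-0.58, 0.0631) and siNT4+siNT4 alone (-0.48, 0.999), and leaving out 1 array gave -0.75 to -0.51, past the threshold except without joint replicate 2, 3 or 4. For TFDP1 it missed with 45 arrays (-0.58, 0.862) and only the groups compared (-0.58, 0.0917), and leaving out 1 array gave -0.68 to -0.46. Small groups limit all counts; the cause of the other changes was not tested.

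The replicate number was also fitted as a block. Deviations of same-numbered joint and siHMGA1 arrays correlated at 0.512, 0.225 and 0.167. Against siNT4 the values were 0.394, -0.163, 0.283 and 0.217, and against siTFDP1 0.296, -0.0045 and 0.192. The main fits used no pairing in any comparison, and the block entered the number for all groups. With the replicate block 3 genes passed against control, 2 against siHMGA1, 256 against siTFDP1 and 3 for non-additivity, HMGA1 fell by 0.59 (adjusted p = 0.00958) and TFDP1 by 0.57 (adjusted p = 0.000405). Not every joint array correlated best with its own number.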
